A study of Rattus norvegicus with 4 samples.

Results

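The DnaJ proteins, also called Hsp40 proteins, are co-chaperones: each carries a J domain that binds an Hsp70 chaperone and speeds its cycle of ATP hydrolysis, so that Hsp70 grips an unfolded client protein. The family is sorted into types. Type A proteins have the J domain, a glycine-rich linker and a zinc-binding region, type B proteins have the J domain and the linker, and type C proteins share only the J domain and are placed in many compartments. In secretory cells such as the chromaffin cells of the adrenal medulla, which make and release adrenaline and noradrenaline, family members fold proteins in the cytosol and endoplasmic reticulum, import them into mitochondria, and act on synaptic and clathrin-coated vesicles. The genes described here are all those on the array whose symbol is Dnaja, Dnajb or Dnajc with a number and whose probe set, the group of short probes that reports on a transcript, is assigned to that gene alone. There were 39 such genes, 4 of type A, 12 of type B and 23 of type C, among 14217 genes on the array. They had 63 probe sets, and each gene is represented by its brightest one. Of the 39, 35 were bright enough to be tested, among 10320 genes in all.

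Total RNA of adrenal medulla was hybridised to 4 single-colour arrays. The 2 control arrays hold RNA of unstressed animals and the other 2 that of animals under immobilization, a common rodent stressor, for 2 h. Strain, sex, age, the number of immobilizations and whether an array holds 1 animal or a pool are not given in the labels. A p-value or SE here rests on the spread between arrays, taken in part from the other probe sets. That spread may be only technical, and the small number of arrays limits every value. Values are linear intensities as deposited. A log2 change is the difference, immobilized minus unstressed, of the group means of log2(intensity + 16), which understates the change of dim genes. A gene "rose" or "fell" where limma's adjusted p (Benjamini-Hochberg, over 18625 probe sets) was under 0.05.

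The median intensity was 955 and 911 on the unstressed and 864 and 827 on the immobilized arrays, so both immobilized medians were lower. The trimmed mean was the same on all arrays. The highest reading apart from controls was 52133 on immobilized 2 and 70582 to 75600 on the others, which limits comparisons of the brightest genes. All 7 chromaffin cell markers found on the array were bright, none rose or fell, and their summed intensity was 271301 to 294563 on the unstressed and 254343 to 362609 on the immobilized arrays. The 6 markers of the adrenal cortex, the steroid-making outer gland, were bright as well, at 257132 to 292082 against 207638 to 276701, with Nr5a1 rising and 0 falling. Nr5a1 went against most of the list. Cyp11b1 (log2 change -0.64), Cyp11a1 (-0.35) and Cyp21a1 (-0.27) read lower on both immobilized arrays without passing. Hsd3b1 had -0.24 and Star 0.07, with overlapping groups. Sums over 5 endothelial markers were 41956 and 52735 against 37815 and 41198 and did not overlap, but these markers did not move together. Kdr, a receptor of endothelial cells, fell (log2 change -0.79) and Tek had -0.33, while Pecam1 had 0.54, Vwf 0.36 and Emcn 0.14. Of the 3 Schwann and sustentacular markers S100b fell and Gfap rose, at sums of 6817 to 7880 against 6159 to 7068. Sums over 6 leukocyte markers (25737 to 27062 against 26839 to 30015) and 6 fibroblast markers (56739 to 77986 against 59744 to 73180) overlapped, with no member called. No marker was within the range of the Bacillus controls on all 4 arrays. The part of these cell types in the changes below was not tested, and in tissue RNA fewer cells of a type and less RNA per cell cannot be told apart.

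Of the 35 tested DnaJ genes, 8 rose, 5 fell and 22 did not pass. Among all tested genes 11.2% rose and 21.8% fell, against 22.9% and 14.3% of the DnaJ genes. The median log2 change was 0.03 for the DnaJ genes and -0.14 for all tested genes. Both immobilized arrays stood above both unstressed arrays at 14 DnaJ genes and below them at 12, where the shares over all tested genes were 24.1% and 45.6%. The rises were Dnajb5, Dnaja4, Dnajc21, Dnajb9, Dnajc12, Dnaja1, Dnaja2 and Dnajc1, and the falls were Dnajc14, Dnajc17, Dnajc4, Dnajc30 and Dnajc10. By type, 3 of 4 genes of type A rose and 0 fell, 2 of 9 of type B rose and 0 fell, and 3 of 22 of type C rose and 5 fell; the difference between the types was not tested.

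The number of falls differed between scalings and with single arrays left out. With the deposited scaling 8 genes rose and 5 fell, after quantile normalization 9 and 2, and with every array centred on its own median 9 and 1, the fall that remained being that of Dnajc14. Over all genes the share of falls went from 21.8% to 20.3% and 15.0% under the same steps, where the median over all tested probe sets went from -0.12 (log2) to 0.02 with the centring. Relative to the array medians Dnajb5 had a change of 3.895, Dnaja4 of 1.85 and Dnajc14 of -0.97. Without immobilized 1 there were 4 rises (Dnajb5, Dnaja4, Dnajb9 and Dnajc12) and 1 fall (Dnajc14). Without immobilized 2 there were 3 rises (Dnajb5, Dnaja4 and Dnaja1) and 0 falls. In both of these fits the spread came from the unstressed arrays alone, and the share of all tested genes called was lower too, at 5.45% rising and 7.03% falling, and at 4.53% and 5.78%. Dnajb5 and Dnaja4 were past the threshold under all 13 alternatives.

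**Figure D1:**
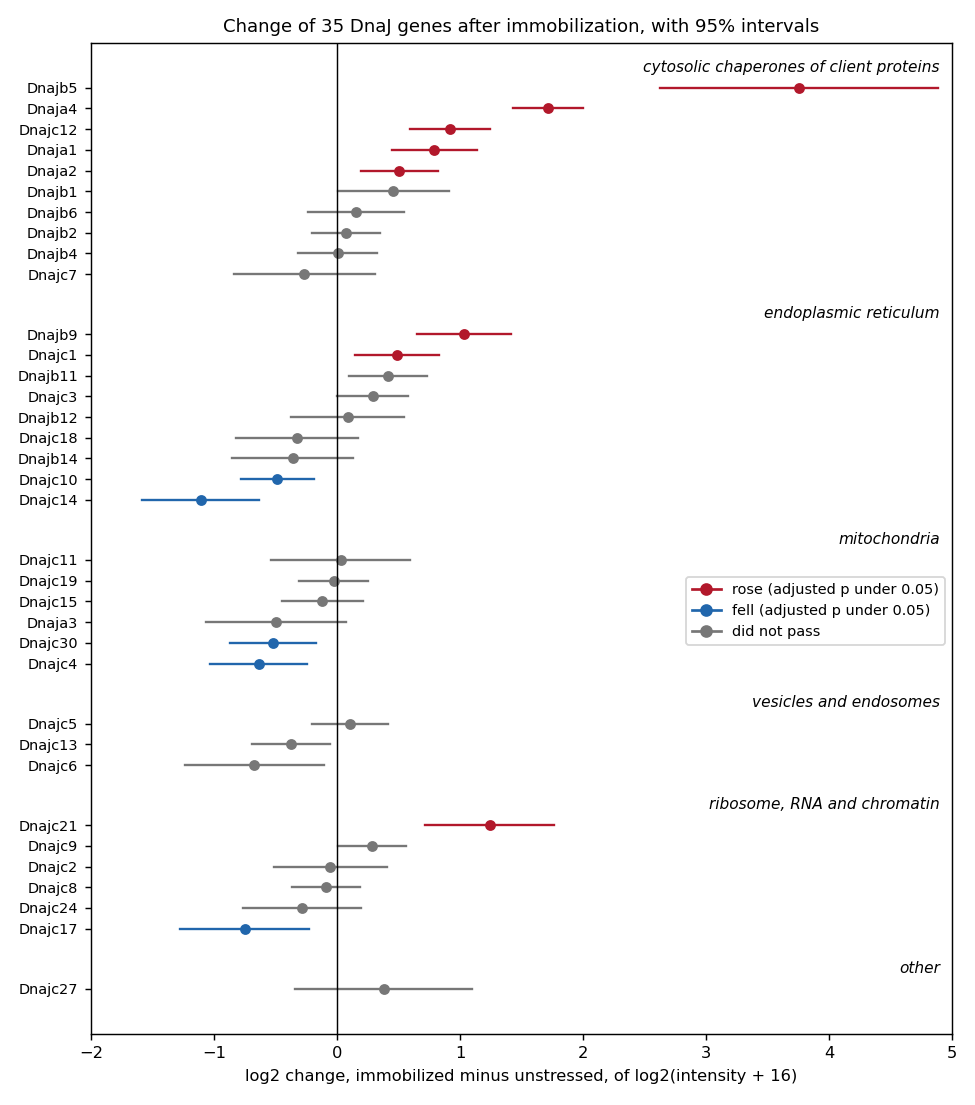
Log2 change (x axis, immobilized minus unstressed) of the 35 tested DnaJ genes, grouped by where the protein works, in groups redrawn after the values were seen. Points are changes and bars 95% intervals of the moderated fit, with n = 2 arrays per group. Dnajb5 and Dnaja4 lie farthest to the right at 3.76 and 1.71, and Dnajc14 farthest to the left at -1.11.

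The stretches before the transcription start of 5 members are shown because these are the genes that the account turns on: the 2 largest rises (Dnajb5 and Dnaja4), Dnaja1 and Dnajb1, the major cytosolic members and well-known targets of the heat shock response, and the largest fall (Dnajc14). Each is the 250 bases before the start that RefSeq's annotation of GRCr8 gives, 5′ to 3′ on the gene's strand. For Dnajb5, Dnaja4 and Dnajc14 that start lies inside the annotated gene, so transcripts from an earlier start have another promoter. Dnajb5 lies at chr5:61972456-61972705 (plus strand), Dnaja4 at chr8:63981337-63981586 (plus), Dnaja1 at chr5:60638154-60638403 (plus), Dnajb1 at chr19:41431142-41431391 (minus) and Dnajc14 at chr7:1819447-1819696 (plus). Capitals mark, on either strand, facing heat shock units (GAANNTTC), the arm TGACG of the cAMP response element, and the CCAAT box; AP-1 sites (TGANTCA) and heat shock units set back to back (TTCNNGAA) were also searched and are not in these 5 stretches.
Dnajb5: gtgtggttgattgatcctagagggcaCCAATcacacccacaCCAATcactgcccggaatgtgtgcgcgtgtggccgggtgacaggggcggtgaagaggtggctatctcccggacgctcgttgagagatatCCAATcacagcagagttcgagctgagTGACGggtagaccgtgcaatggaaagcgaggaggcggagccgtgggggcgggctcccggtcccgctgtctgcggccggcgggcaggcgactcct
Dnaja4: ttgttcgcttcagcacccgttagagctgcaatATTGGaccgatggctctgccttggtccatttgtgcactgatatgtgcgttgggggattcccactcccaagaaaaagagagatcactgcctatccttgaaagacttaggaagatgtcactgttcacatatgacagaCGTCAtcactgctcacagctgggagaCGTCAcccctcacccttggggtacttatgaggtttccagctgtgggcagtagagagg
Dnaja1: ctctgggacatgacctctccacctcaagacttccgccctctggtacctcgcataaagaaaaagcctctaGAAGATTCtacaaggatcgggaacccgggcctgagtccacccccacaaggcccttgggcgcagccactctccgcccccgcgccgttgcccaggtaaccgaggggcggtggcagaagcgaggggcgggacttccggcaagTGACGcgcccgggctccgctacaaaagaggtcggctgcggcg
Dnajb1: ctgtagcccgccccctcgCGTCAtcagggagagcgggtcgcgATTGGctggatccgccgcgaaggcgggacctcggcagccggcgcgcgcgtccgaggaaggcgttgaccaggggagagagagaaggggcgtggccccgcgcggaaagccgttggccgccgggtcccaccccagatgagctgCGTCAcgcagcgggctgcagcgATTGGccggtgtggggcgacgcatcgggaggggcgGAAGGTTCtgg
Dnajc14: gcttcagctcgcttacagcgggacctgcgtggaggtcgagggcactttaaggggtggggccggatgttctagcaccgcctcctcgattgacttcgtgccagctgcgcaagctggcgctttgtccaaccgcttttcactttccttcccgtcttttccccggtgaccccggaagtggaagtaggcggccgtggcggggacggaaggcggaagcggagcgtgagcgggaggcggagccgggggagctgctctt
The stretch of Dnajb5 holds 3 CCAAT boxes and 1 arm of the cAMP response element, and that of Dnaja4 holds 2 such arms and 1 CCAAT box. The stretch of Dnajc14 holds none of the letters searched, which says only that they are not in this window.

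Promoter windows, 250 bases before to 50 after the start, were found for 30 of the 39 members, 6 of them rising and 5 falling, and for 27457 genes in all. Facing heat shock units were in 1 of 6 windows of rising genes (Dnaja1), 0 of 5 of falling genes and 3 of 16 of genes that did not pass (Dnajb1, Dnajb6 and Dnajc18), against 9.09% of all genes with a window. Back-to-back units were in Dnaja1 and in Dnajc27, which did not pass, against 9.27% of all. In Dnaja1 the match GAACTTTC begins 10 bases past the start and overlaps the back-to-back match TTCCAGAA that begins at base 15, so that 3 units follow each other. Dnajb1 likewise has a match past the start, GAAGCTTC from base 18, besides the one in capitals. The arm TGACG was in 4 of 6 rising (Dnaja1, Dnaja4, Dnajb5 and Dnajb9), 2 of 5 falling and 9 of 16 other tested genes, against 23% of all. Its full form TGACGTCA, which contains it, was in Dnajc30, which fell, and Dnajc27, against 2% of all. CCAAT was in 3 of 6, 2 of 5 and 6 of 16, against 39.6%. TGANTCA was in Dnajc18 alone of the tested members, against 8.04%. The endoplasmic reticulum stress element, here CCAAT followed after 9 bases by CCACG, was in 21 windows of all genes, or 0.0765%, among them that of Dnajc3. A match is a description and not a site shown to be bound.

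The compartments below were redrawn after the values were seen. Among the cytosolic members, which hold client proteins for Hsp70, 5 of 10 rose (50%) and 0 fell, with a median log2 change of 0.48. Of all tested genes 11.2% rose and 21.8% fell. Dnajb5, a type B co-chaperone, had the largest change of the family. Its intensity was 979 and 303 on the unstressed and 7454 and 7729 on the immobilized arrays. The groups lay far apart, although the unstressed arrays differed from each other by more than the immobilized ones. Its log2 change was 3.76 ± 0.48 (SE; 2 arrays per group here and in every such value), or 13.5-fold, with an adjusted p of 0.00219 and a 95% interval of 2.62 to 4.89. The size rests on the unstressed arrays and on the probe set: the change was 4.58 without unstressed 1, 2.93 without unstressed 2 and 2.25 for the mean of its probe sets, and it passed each time. Its other probe sets also read higher after immobilization, but with smaller changes. The second reads 277 and 417 against 894 and 965 and rose by 1.41 (adjusted p = 0.00971). It passed the filter level of 543.8 only through its immobilized readings. The third, too dim to be tested, reads 65.1 and 200 against 377 and 389.

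Dnaja4, a type A co-chaperone, had 4292 and 4177 on the unstressed against 13457 and 14399 on the immobilized arrays. The 2 arrays of each group were close together and the groups far apart. It rose by 1.71 ± 0.12, or 3.28-fold (adjusted p = 2.46e-04), and its dimmer probe set rose by 0.99 ± 0.23 from 368 and 441 to 854 and 773. That dimmer probe set passed the filter level of 543.8 only through its immobilized readings. Dnaja1, a paralog of Dnaja4 and the major type A protein of the cytosol, went from 12784 and 14205 to 25669 and 21172. The lowest immobilized reading was above the highest unstressed one. Dnaja1 rose by 0.79 ± 0.14, or 1.73-fold (adjusted p = 0.00813, and 0.0569 without immobilized 1), and by 1.14 ± 0.13 at its other probe set. Dnaja2, the third cytosolic type A gene, read 14144 and 16141 against 22356 and 20586 and rose by 0.51 ± 0.13 (adjusted p = 0.028). That small rise did not pass without unstressed 1 (adjusted p = 0.108), immobilized 1 (0.126) or immobilized 2 (0.0869), nor without the intensity trend (0.0649), over a range of 0.013 to 0.126 across the alternatives. The gene table of GRCr8 lists pseudogene copies of Dnaja1, Dnaja3, Dnaja4, Dnajb6, Dnajb13, Dnajc8, Dnajc10, Dnajc14, Dnajc17 and Dnajc30, whose transcripts, if any, the probes could also bind, so these readings are uncertain to that extent.

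Dnajc12, known to assist the folding of tyrosine hydroxylase and the related aromatic amino acid hydroxylases, read 5303 and 4949 in the unstressed and 8879 and 10544 in the immobilized group. It rose by 0.92 ± 0.14, or 1.89-fold (adjusted p = 0.00399, and 0.0612 without immobilized 2). Th itself, the gene of tyrosine hydroxylase, had 54049 and 55633 against 68379 and 44651, and its groups overlapped. The 2 genes thus stood at log2 changes of 0.92 and 0.01 on the same arrays, and the difference between them was not tested. Th is among the brightest genes. The highest reading apart from controls was 52133 on immobilized 2 against 70582 to 75600 on the other arrays. The 0.01 of Th averages a higher and a lower reading and does not show that Th was unchanged.

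The other 5 cytosolic members did not pass. Dnajb1, the classical inducible Hsp40, read 11083 and 15028 against 19914 and 15772, with a log2 change of 0.46 ± 0.19 (adjusted p = 0.11) and 0.57 at its other probe set. Its unstressed arrays differed by nearly as much as the groups did. Its log2 change was 0.68 without unstressed 2 but 0.24 without unstressed 1, the ends of its range across the alternatives. Dnajb2, a neuronal chaperone that binds ubiquitin chains, read 12551 and 13125 against 13703 and 13252, with a change of 0.07 ± 0.12. Dnajb4 read 8888 and 10219 against 9017 and 10140, with almost the same mean in both groups. Dnajb6, a suppressor of aggregation, had a change of 0.15 ± 0.17 at the probe set of this gene alone. Probe sets shared with its pseudogenes had 0.65, past the threshold, and -0.42. Dnajb2 and Dnajb4 turned sign after quantile normalization. Dnajc7, which has tetratricopeptide repeats and binds both Hsp70 and Hsp90, had -0.27 with overlapping groups. Its log2 change was -0.57 without unstressed 1 but 0.035 without unstressed 2, the ends of its range across the alternatives.

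**Figure D2:**
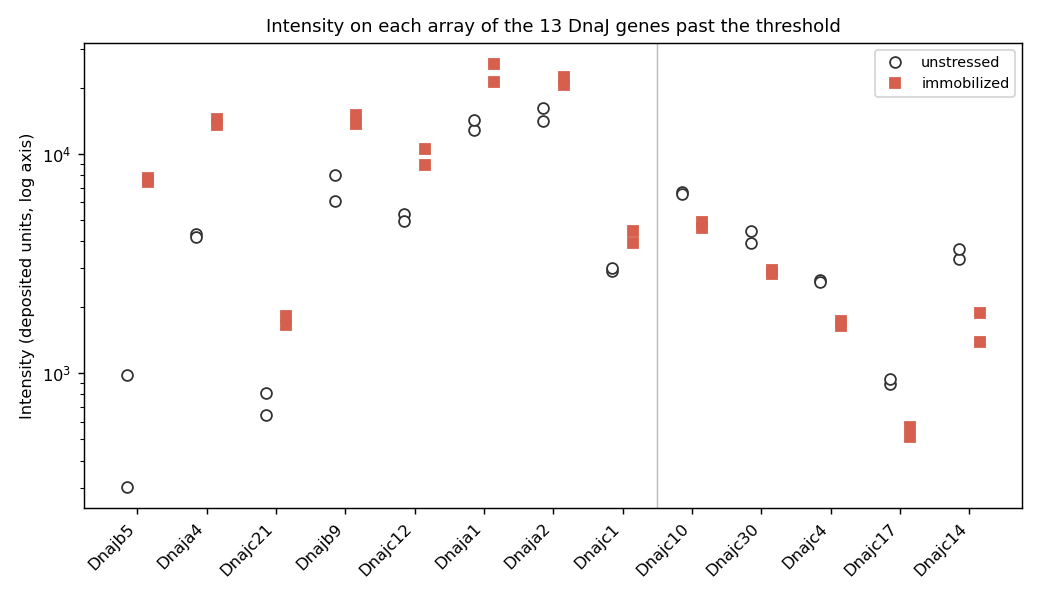
Intensity on each array (y axis, log scale, deposited units) of the 13 DnaJ genes past the threshold, rises left of the grey line and falls right of it, each ordered by log2 change. Circles are the 2 unstressed and squares the 2 immobilized arrays. The groups do not overlap at any of the 13 genes, which the choice of genes by adjusted p makes likely. The unstressed arrays of Dnajb5, at 979 and 303, are the widest pair.

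In the endoplasmic reticulum, where DnaJ proteins serve the Hsp70 protein BiP (Hspa5), 2 of 9 members rose and 2 fell, with a median of 0.09. Those shares, 22.2% each, stand beside 11.2% rising and 21.8% falling among all tested genes. Dnajb9 (ERdj4), which binds the stress sensor Ire1 and helps in the disposal of misfolded proteins, read 6077 and 8026 against 13658 and 14949. Both immobilized readings stood well above the unstressed ones. It rose by 1.03 ± 0.16, or 2.04-fold (adjusted p = 0.00466, and 0.0645 without immobilized 2). Dnajc1, a membrane protein near the translocon, read 2930 and 3027 against 4423 and 3934 and rose by 0.48 ± 0.14 (adjusted p = 0.0429). A dimmer probe set of Dnajc1 had a change of -0.03, and the call was lost without unstressed 1 (adjusted p = 0.055), immobilized 1 (0.254) or immobilized 2 (0.145), without the filter (0.0581), without the intensity trend (0.0658) and for the mean of its probe sets (0.271). Dnajb11 (ERdj3), a soluble co-chaperone of BiP, read 3628 and 3931 against 4861 and 5214. Its groups stood apart at a change of 0.41 ± 0.13, but the adjusted p of 0.0559 did not pass. It did pass after quantile normalization (adjusted p = 0.0447) and after median centring (0.0327). It also passed in the fit that averages the probe sets of each gene (0.041, at an unchanged log2 change since it has a single probe set). Across the alternatives its log2 change ran from 0.36 to 0.55.

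The falls in this compartment were those of Dnajc14 and Dnajc10. Dnajc14, a membrane protein known to regulate the transport of the dopamine D1 receptor to the cell surface, read 3318 and 3677 against 1875 and 1386. Both immobilized readings were far below the unstressed ones. Its log2 change was -1.11 ± 0.20, 2.16-fold lower (adjusted p = 0.00778, and 0.0716 without immobilized 2), and its second probe set had -0.75 ± 0.19 and fell too. Dnajc10 (ERdj5), a reductase that breaks disulfide bonds of misfolded proteins, read 6717 and 6541 against 4903 and 4566 and had a change of -0.48 ± 0.12 (adjusted p = 0.0262). Its call was lost after median centring (adjusted p = 0.101), without the intensity trend (0.0596), without immobilized 1 (0.114) and without immobilized 2 (0.179), and its second probe set had -0.24. The readings of the rest lay closer together. Dnajc3, the inhibitor of the kinase PERK known as p58IPK, read 6868 and 7496 against 8945 and 8605 (0.29, adjusted p = 0.113), the tail-anchored membrane proteins Dnajb12 and Dnajb14 had 0.09 and -0.36, and Dnajc18 had -0.32. None of these passed, though Dnajb14 did without unstressed 2 (-0.62, adjusted p = 0.0268), against -0.10 without unstressed 1 (adjusted p = 0.722).

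In mitochondria 0 of 6 members rose and 2 fell (33.3%), with a median of -0.31. Of all tested genes 11.2% rose and 21.8% fell. Dnajc30, which is bound to the respiratory chain and the ATP synthase, read 3906 and 4432 against 2953 and 2835. The groups did not overlap, and the change was -0.52 ± 0.15 (adjusted p = 0.0355). Dnajc4 read 2655 and 2616 against 1737 and 1642, with a change of -0.64 ± 0.17 (adjusted p = 0.0281). Both calls were lost after quantile normalization (adjusted p = 0.0855 and 0.0622), after median centring (0.121 and 0.0689), without immobilized 1 (0.155 and 0.119) and without immobilized 2 (0.197 and 0.158); Dnajc30 also lost it without unstressed 2 (0.0808), without the intensity trend (0.0557) and for the mean of its probe sets (-0.12, adjusted p = 0.768). Dnaja3, the mitochondrial type A protein, read 4164 and 6942 against 3639 and 3980, with a change of -0.50 ± 0.24 (adjusted p = 0.158), which became -0.86 without unstressed 1 (adjusted p = 0.00193) and -0.13 without unstressed 2 (adjusted p = 0.593). Its unstressed arrays were the less alike pair. Dnajc19 and Dnajc15, both parts of or related to the import motor of the inner membrane, had changes of -0.03 and -0.12, at readings of 10510 to 11367 and of 28534 to 33953 over the 4 arrays, which turned sign after median centring, and Dnajc11, of the membrane-shaping MICOS complex, had 0.03. Hscb, a mitochondrial J protein of iron-sulfur cluster assembly that has no Dnaj symbol, read 3993 and 4920 against 2654 and 3073 and fell, with a change of -0.63 ± 0.17.

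The vesicle and endosome members are of interest in a tissue that secretes by exocytosis. Among them 0 of 3 passed, where 11.2% of all tested genes rose and 21.8% fell. Dnajc5, the cysteine string protein of secretory vesicles, read 11039 and 9441 against 10861 and 11145. Its groups overlapped, with a change of 0.11 ± 0.13 and a 95% interval of -0.20 to 0.42, and its other probe sets had -0.24 and 0.40. Dnajc6, the auxilin that uncoats clathrin vesicles in neurons, read 5225 and 3373 against 2954 and 2339. Both immobilized readings were below the unstressed pair, whose members differed widely, and the change of -0.67 ± 0.24 had an adjusted p of 0.0725. Its dimmer probe set fell, from 1400 and 904 to 473 and 400 (-1.34 ± 0.28, adjusted p = 0.0133), but passed the filter level of 543.8 only through its unstressed readings. Without unstressed 2 the brighter probe set had a log2 change of -0.99, and without unstressed 1 it had -0.36. The mean of the probe sets passed (-1.01, adjusted p = 0.02). Across the alternatives the log2 change of Dnajc6 ran from -1.01 to -0.36. Gak, the auxilin of other tissues, had 0.06. Dnajc13, an endosomal protein, read 5327 and 6062 against 4406 and 4369 with a change of -0.37 ± 0.13 (adjusted p = 0.0751, and 0.0361 without unstressed 1, over a range of 0.0361 to 0.299).

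Of the 6 members that act at the ribosome, on RNA or at chromatin, 1 rose and 1 fell (16.7% each), with a median of -0.07. Among all tested genes the shares were 11.2% and 21.8%. Dnajc21, which works in the maturation of the large ribosomal subunit, read 645 and 811 against 1650 and 1815. The groups stood clearly apart, and it rose by 1.24 ± 0.22, or 2.36-fold (adjusted p = 0.00742, but 0.0596 without immobilized 1 and 0.0819 without immobilized 2). Its only probe set is of a kind whose probes can be shared by several transcripts. Dnajc17, linked to splicing, read 894 and 940 against 510 and 569, with a change of -0.75 ± 0.22 (adjusted p = 0.0417). This was the dimmest of the tested members. Its call was lost after quantile normalization (adjusted p = 0.0783), after median centring (0.0885), without the filter (0.0868) and with any 1 array left out (0.064 without unstressed 1, 0.0917 without unstressed 2, 0.201 without immobilized 1 and 0.151 without immobilized 2). Dnajc9, a histone chaperone, read 8143 and 8581 against 10055 and 10308, groups that did not overlap at a change of 0.28 ± 0.12 (adjusted p = 0.108). The ribosome-bound Dnajc2 (-0.05), the spliceosomal Dnajc8 (-0.09) and Dnajc24 (-0.29), which takes part in making the diphthamide residue of an elongation factor, did not pass. Dnajc2 turned sign after quantile normalization and median centring, and Dnajc8 after median centring.

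The remaining 5 members have other or less settled roles. Dnajc27, which joins a J domain to a small GTPase, read 2991 and 1537 against 2712 and 2885. Its groups overlapped at a change of 0.38 ± 0.30. The log2 change was 0.86 without unstressed 1 and -0.10 without unstressed 2, the ends of its range across the alternatives. The other 4 genes were under the filter level of 543.8. Dnajc22 read 305 and 524 against 370 and 272. It was the untested member nearest to the filter, at percentile 31.1 of mean log2 value against a cut at the 40th. Dnajc17, at percentile 45.1, was the nearest member inside it. Dnajb3, Dnajb7 and Dnajb13, known mainly from testis and sperm, read from 9.12 to 282. Dnajb7 and Dnajb13 were on all 4 arrays within the range of the 27 Bacillus controls, 2.18 to 257, and Dnajb3 was on 3.

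**Figure D3:**
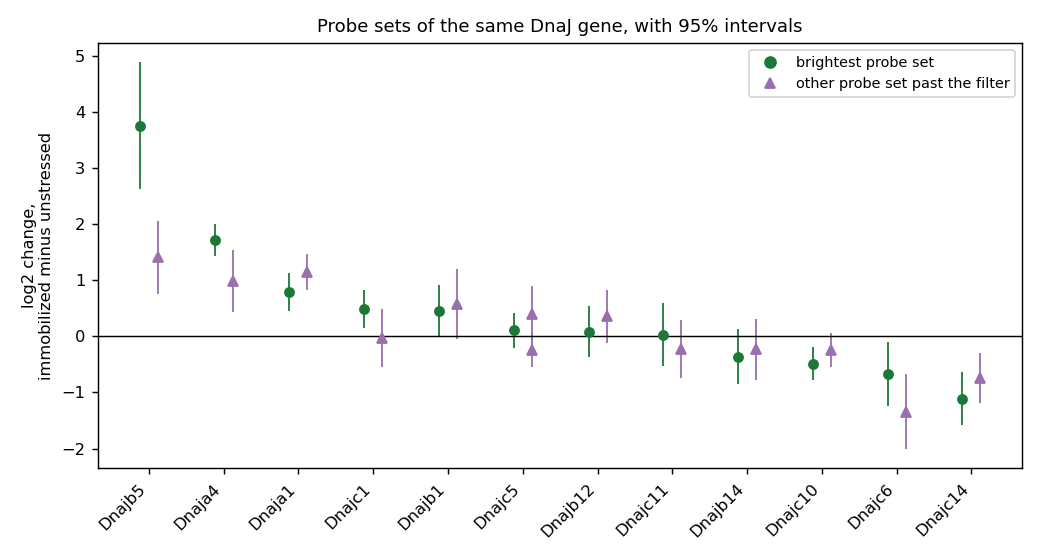
Log2 change (y axis, immobilized minus unstressed) of each tested probe set of the DnaJ genes that have several past the filter, with 95% intervals; circles are the brightest probe set of the gene and triangles the others. Of 13 other probe sets 10 had the sign of the brightest one, the exceptions being those of Dnajc1, Dnajc11 and Dnajc5.

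Different probe sets of a gene give a second reading of the same RNA on the same arrays. Of 13 other probe sets past the filter, 10 had the sign of the brightest one. For the called genes there were 6, of which 5 had the same sign and 4 were called the same way. Those 4 belonged to Dnajb5, Dnaja4, Dnaja1 and Dnajc14. For Dnaja1 and Dnajc14 the other probe set read above the filter level of 543.8 on all 4 arrays. For Dnajb5 and Dnaja4 it read under that level on both unstressed arrays and was tested only because its immobilized readings were higher. The calls at those probe sets are therefore no separate support for the 2 rises. The changes of Dnajb5 and Dnaja4 were smaller at the dimmer probe set, and that of Dnaja1 was larger.

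The Hsp70 proteins that DnaJ proteins serve were counted in the same fit. Of 10 tested Hsp70 genes 3 rose (30%) and 0 fell, with a median of 0.26, against 11.2% and 21.8% of all tested genes. Hspa1a, the stress-inducible Hsp70, read 2990 and 3346 against 26595 and 20582 and rose by 2.88 ± 0.16. The Hsp110 relatives Hspa4l (1154 and 964 against 5987 and 5304) and Hsph1 (7539 and 6559 against 18315 and 14674), which exchange the nucleotide of Hsp70, rose by 2.40 and 1.22. The partners of the endoplasmic reticulum and of mitochondria did not pass. Hspa5 of the endoplasmic reticulum had 0.46 ± 0.15 (adjusted p = 0.0614), with groups that did not overlap, and Hspa9 of mitochondria had 0.21 ± 0.15. Hspa8 and Hspa1b, also listed, had no probe set assigned to them alone. After quantile normalization, after median centring and with probe sets averaged by gene, 4 Hsp70 genes rose. No test compared the DnaJ genes with the Hsp70 genes.

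Of 15 tested exchange factors and other Hsp70 co-chaperones 2 rose (13.3%) and 1 fell (6.67%), with a median of 0.14. Among all tested genes 11.2% rose, a share close to that of this list, and 21.8% fell. Bag3, which couples Hsp70 to selective autophagy, read 9721 and 10602 against 40916 and 32582 and rose by 1.84 ± 0.15. Bag5 rose by 0.41 ± 0.12 with an adjusted p of 0.0471, close to the threshold. Sil1, the exchange factor of BiP, read 4360 and 5327 against 3180 and 2810 and fell, with a change of -0.69 ± 0.16. Of 11 Hsp90, chaperonin and small heat shock protein genes 2 rose (Hspb8 by 3.02, Cryab by 0.69) and 1 fell (Hspb6, -0.43), or 18.2% and 9.09%. Of the 2 tested heat shock transcription factor genes Hsf1 had 0.28 and did not pass, and Hsf2 read 6176 and 6709 against 4900 and 4775 and fell, with a change of -0.41 ± 0.13 (adjusted p = 0.0462). Of the 5 J proteins under other symbols 0 rose and 1 fell (Hscb), or 20%. Besides Gak, Sec63 had -0.13, Samd13 -0.14 and Pam16 0.01.

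**Figure D4:**
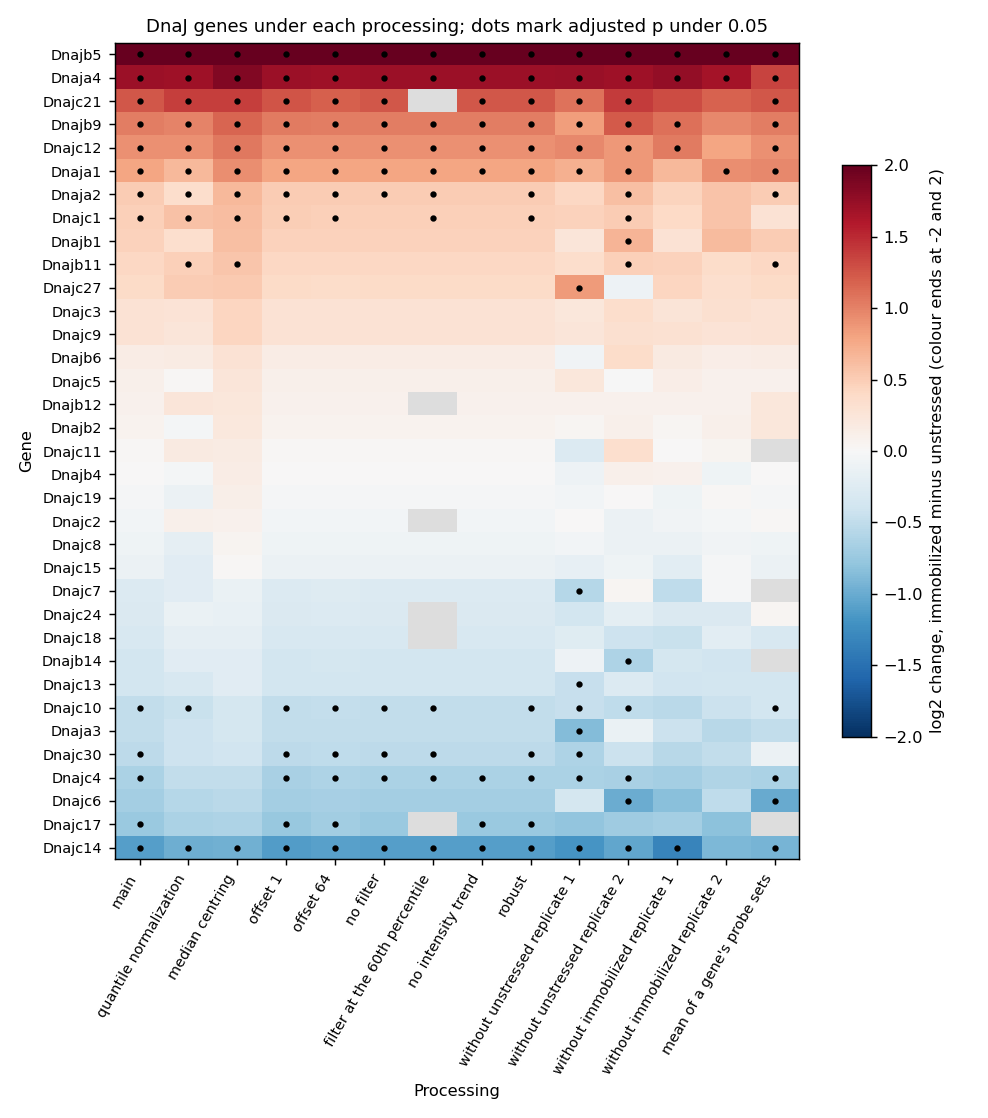
Log2 change (colour, red higher and blue lower in the immobilized group) of each tested DnaJ gene (rows, ordered by change) under each processing (columns), with a dot where the adjusted p is under 0.05 and grey where the gene was not tested. Dnajb5 and Dnaja4 carry a dot in every column, Dnajc14 in all but the one without immobilized 2, and few dots are left in the lower rows under median centring and with an immobilized array left out.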

How the data were processed

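The 4 arrays of rat adrenal medulla RNA were grouped by the submitters' descriptions. Each value in the authors' deposited table is a linear intensity of a probe set on an array; the sources used here do not give how probes were summarised. All columns share a trimmed mean (2501, with 2% left out at each end and a spread of 0.00572%), so no scaling was added. Without the 57 control probe sets, 31042 were left. Log2(intensity + 16) was fitted with limma 3.58.1 in R 4.3.3 (lmFit, eBayes with an intensity trend), two-sided, without probe sets under the 40th percentile of mean log2 value (intensity 543.8), leaving 18625. There were 6.81 degrees of freedom, 4.81 from the prior. An exact permutation test of 2 against 2 cannot give a p below 0.33. On data simulated for the 18625 probe sets the fit found 29 of 100 changes of 2-fold and 88 of 100 of 4-fold, with 5 false among 122 calls. Only 100 probe sets of each size were changed there, whereas 2180 rose and 3619 fell in the real data. The adjusted p depends on that share, so the simulated rates do not carry over to the calls reported here. Fits that omit an array take their spread from the complete group alone, as if both groups varied alike.

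Genes were named from GEO's platform annotation; all 39 DnaJ genes were found by Entrez identifier in a GRCr8 gene table, with 0 symbols changed. Promoters are RefSeq's; motifs were searched on both strands. The rule named every DnaJ gene, up to 6 called genes of each other list, and the 2 largest changes of a list without calls; other list genes were picked with their values in view. The members and lists were chosen with earlier results of these data known. The compartments were redrawn after the values were seen. Dnajc14 was moved from the nuclear and RNA list (2 rises and 2 falls among 8 tested) to the endoplasmic reticulum (2 and 1 among 8). Dnajc7 and Dnajc12, first a list of their own in which 1 rose, joined the cytosolic genes, and Dnajc27 left the vesicle genes. In the first lists 0 of 4 vesicle genes were called, 2 of 6 mitochondrial genes fell, and 4 of 8 cytosolic genes of types A and B rose. Alternatives were other scalings, offsets, filters, variance models and probe set rules, and each array left out. Plots were drawn with matplotlib 3.10.9.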

Additional observations from a re-analysis of the deposited data

How the results depend on the processing

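Dnajb5 and Dnaja4 kept their direction and call under all 13 alternatives; Dnaja1, Dnajb9, Dnajc12 and Dnajc14 each lost the call under 1. The number of DnaJ genes that rose was within 1.5 times of 8 except with an array left out (3 to 10). The number that fell, 5, was 2 after quantile normalization, 1 after median centring and 3 without the intensity trend, and 0 to 7 with an array left out. Among exchange factors 1 rose without the filter, without the trend and with the robust model, and 1 to 2 with an array left out; 2 fell after quantile normalization, 0 after median centring and 0 to 2 with an array left out. Members near 0 turned sign, none of them called: after quantile normalization Dnajb2 (-0.038), Dnajb4 (-0.045) and Dnajc2 (0.10); after median centring Dnajc19 (0.11), Dnajc2 (0.086), Dnajc8 (0.049) and Dnajc15 (0.019); with probe sets averaged by gene Dnajc2 (0.019) and Dnajc24 (0.036). With an array left out the ranges that cross 0 were -0.10 to 0.86 for Dnajc27, -0.063 to 0.37 for Dnajb6, -0.0048 to 0.22 for Dnajc5, -0.27 to 0.33 for Dnajc11, -0.10 to 0.11 for Dnajb4, -0.083 to 0.030 for Dnajc19, -0.11 to 0.0028 for Dnajc2 and -0.57 to 0.035 for Dnajc7. The cause of these shifts was not tested. Offsets of 1 and 64 and the robust model left the same 13 DnaJ genes called; a filter at the 60th percentile, or none, left 7 rises and 4 falls. Dnajc21, Dnajb12, Dnajc2, Dnajc24, Dnajc18 and Dnajc17 have no value under the stricter filter, and Dnajc11, Dnajc7, Dnajb14 and Dnajc17 none with averaged probe sets, as they were then too dim to be tested. No paired analysis was possible because the labels number no replicates and accession order pairs nothing. Precision is limited by the 2 arrays per group and, for dim genes, by background.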

Other observations

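Probe sets shared with other genes stood outside the family as defined. Dnajb6 has 2 further probe sets that are also assigned to its pseudogenes, and they moved in opposite directions. One read 4229 and 5389 on the unstressed and 7131 and 7855 on the immobilized arrays, a log2 change of 0.65 ± 0.16 (SE, n = 2 per group; adjusted p = 0.0219 in limma). The other read 2808 and 3031 against 2154 and 2207, with -0.42 ± 0.16 (adjusted p = 0.0859). The probe set of Dnajb6 alone had 0.15 ± 0.17. Which transcripts each of them reports was not tested.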
